A study of Mus musculus with 12 samples.

Results

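The mRNAs of 8 enzymes that add methyl groups to lysine 36 of histone H3 (H3K36) or remove them were followed in the cortex of mice with and without a history of binge-like ethanol drinking. The 8 genes, the methyltransferases Setd2, Nsd1, Nsd2, Nsd3 and Ash1l and the demethylases Kdm2a, Kdm2b and Kdm4a, were taken by gene symbol from a table of 33024 symbols, and all 8 were found once. The tissue was total RNA of brain cortex from 12 C57BL/6 mice of Arm #2, 7 labelled Control (vehicle) and 5 labelled EtOH, with 1 library per mouse. Ethanol-administered mice were 30 days old at the start and had a bottle of 20% (v/v) ethanol beside a bottle of water for 12 h in the dark, over 35 sessions, whereas control mice had water in both bottles. All mice of this arm were then kept without ethanol for 14 days and went through behavioural tests before the brains were taken. The cortex was dissected from perfused brains, so each library mixes neurons, glia and vessels.

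H3K36 methylation is laid down along transcribed genes and in the regions around them. SETD2 travels with elongating RNA polymerase II and makes the trimethyl mark. NSD1, NSD2, NSD3 and ASH1L make the mono- and dimethyl marks. KDM2A and KDM2B remove the lower methylation states, and KDM4A removes trimethyl groups from H3K36 and from H3K9. All 5 methyltransferases take the methyl group from S-adenosylmethionine, and the mark is read by proteins such as the mismatch repair factor MSH6. Because the study followed H3K36 trimethylation by SETD2 as a step between methyl donor supply and mismatch repair, the comparison asked whether the mRNAs of the writers and erasers of this mark differed between the groups.

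The 5 methyltransferases share a catalytic SET domain, and the bases that code for its conserved asparagine-histidine motif are shown to make clear how alike these mRNAs are at the site that binds the methyl donor. Each run is the coding strand, 5′ to 3′, with the motif in capitals, from the Gencode release 39 mouse transcripts (GRCm39).
Setd2: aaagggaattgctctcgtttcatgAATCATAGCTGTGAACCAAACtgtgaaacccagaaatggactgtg
Nsd1: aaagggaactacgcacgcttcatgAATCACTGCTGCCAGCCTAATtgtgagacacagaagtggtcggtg
Nsd2: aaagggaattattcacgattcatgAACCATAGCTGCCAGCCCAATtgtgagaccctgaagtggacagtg
Nsd3: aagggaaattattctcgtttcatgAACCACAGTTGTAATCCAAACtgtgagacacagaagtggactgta
Ash1l: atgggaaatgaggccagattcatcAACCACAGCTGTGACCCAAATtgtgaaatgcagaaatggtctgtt
Over these 69 bases, Setd2 shared 56 with Nsd3, 55 with Nsd2, 52 with Nsd1 and 50 with Ash1l, and the most alike pair was Nsd1 and Nsd2 with 57. The windows lie in exon 20 of the longest coding transcript for Nsd1 (chr13:55450676-55450744) and Nsd2 (chr5:34048874-34048942) and in exon 21 for Nsd3 (chr8:26199114-26199182), all on the plus strand. Those of Setd2 (chr9:110392023-110393647, exons 8 and 9, plus strand) and Ash1l (chr3:88950889-88959302, exons 12 and 13, plus strand) cross a splice junction.

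The 3 demethylases bind iron in a JmjC domain. The codons of the first histidine and the acidic residue that hold the iron, with the codon between them, are in capitals below, again on the coding strand, 5′ to 3′.
Kdm2a: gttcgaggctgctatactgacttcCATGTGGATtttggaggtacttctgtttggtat
Kdm2b: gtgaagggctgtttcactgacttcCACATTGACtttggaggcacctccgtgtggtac
Kdm4a: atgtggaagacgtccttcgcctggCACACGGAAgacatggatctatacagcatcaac
Kdm2a and Kdm2b were identical at 41 of these 57 bases, while Kdm4a shared 15 with Kdm2a and 19 with Kdm2b. The windows lie in exon 7 of Kdm2a (chr19:4401786-4401842) and of Kdm2b (chr5:123087154-123087210) and in exon 5 of Kdm4a (chr4:118025611-118025667), all on the minus strand of GRCm39. These runs also mark which annotated mRNAs can encode the enzyme. The Ash1l and Kdm4a window was present in all 2 and all 5 coding transcripts, and that of Setd2 in 5 of 8, Kdm2a in 8 of 11 and Kdm2b in 7 of 9. It was present in 8 of 19 coding transcripts of Nsd1, 6 of 15 of Nsd2 and 7 of 19 of Nsd3, some of them annotated only in part. The deposited counts are per gene, so transcripts with and without the catalytic site were counted together.

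Total counts per mouse ranged from 31768079 to 42183031, with control mouse 5 and ethanol-administered mouse 1 deeper than the others. Values of single genes are given as CPM, counts per 1000000 of the library size, which was scaled by TMM factors between 0.982 and 1.02, and group means carry their SD over mice (n = 7 control and n = 5 ethanol-administered mice). Markers of the striatum and the hippocampus, which neighbour the cortex, moved with the groups. The summed CPM of 15 striatal markers was 1400 to 3130 in control and 406 to 521 in ethanol-administered mice, that of 12 hippocampal markers 294 to 411 and 530 to 600. The groups overlapped for 6 choroid plexus markers, with 6.19 to 16.7 and 11.9 to 979, and for 6 thalamic markers, with 111 to 133 and 117 to 133. Of these, all 15 striatal markers were lower at an edgeR adjusted p under 0.05. At the same threshold 9 of 12 hippocampal, 4 of 5 tested choroid plexus and 1 of 6 thalamic markers were higher. No marker of these lists was at 0 in every mouse. The summed CPM of 10 cortical glutamatergic neuron markers, from 5610 to 7080 and from 6240 to 7390, overlapped, with 4 of the 10 higher and 2 lower, and that of 8 astrocyte markers, from 2890 to 3420 and from 3250 to 3770, overlapped with 3 of the 8 higher and 1 lower. That of 8 oligodendrocyte markers, from 4430 to 5880 and from 2970 to 5310, overlapped too, with 7 of the 8 lower at an edgeR adjusted p under 0.05. The groups did not overlap for 8 microglia markers, with 338 to 374 and 284 to 308 and 5 of 8 lower, or for 8 inhibitory neuron markers, with at least 1020 in control and at most 896 in ethanol-administered mice and 4 of 8 lower. The part of these markers in the values below was not tested, and in whole tissue fewer cells of a type cannot be told apart from less RNA per cell.

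All 8 H3K36 enzymes were expressed, and 3 of them were higher in the ethanol-administered mice at an adjusted p under 0.05, Nsd1, Kdm2b and Nsd3 (edgeR quasi-likelihood test, Benjamini-Hochberg over 16059 genes). In that fit 23.7% of all tested genes differed at this threshold in either direction, and 12.1% were higher. Their changes were small, 25% for Nsd1 at most, and with the study's minimum of 0.5 on the log2 scale 0 of the 8 were called, where 8.29% of all genes were. DESeq2 and limma voom also called 0, and 0 passed that size at an unadjusted p under 0.05, while 5 of the 8 had an unadjusted edgeR p under 0.05 at any size, as did 36.5% of all genes. With a trend on transcript length taken out, 1 of the 8 was higher at an adjusted p under 0.05, Kdm2b, where 10.9% of all genes were. All 8 had a positive log2 fold change, with a median of 0.16, against 8031 of 16059 genes and a median of 0 over all genes tested.

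**Figure D1:**
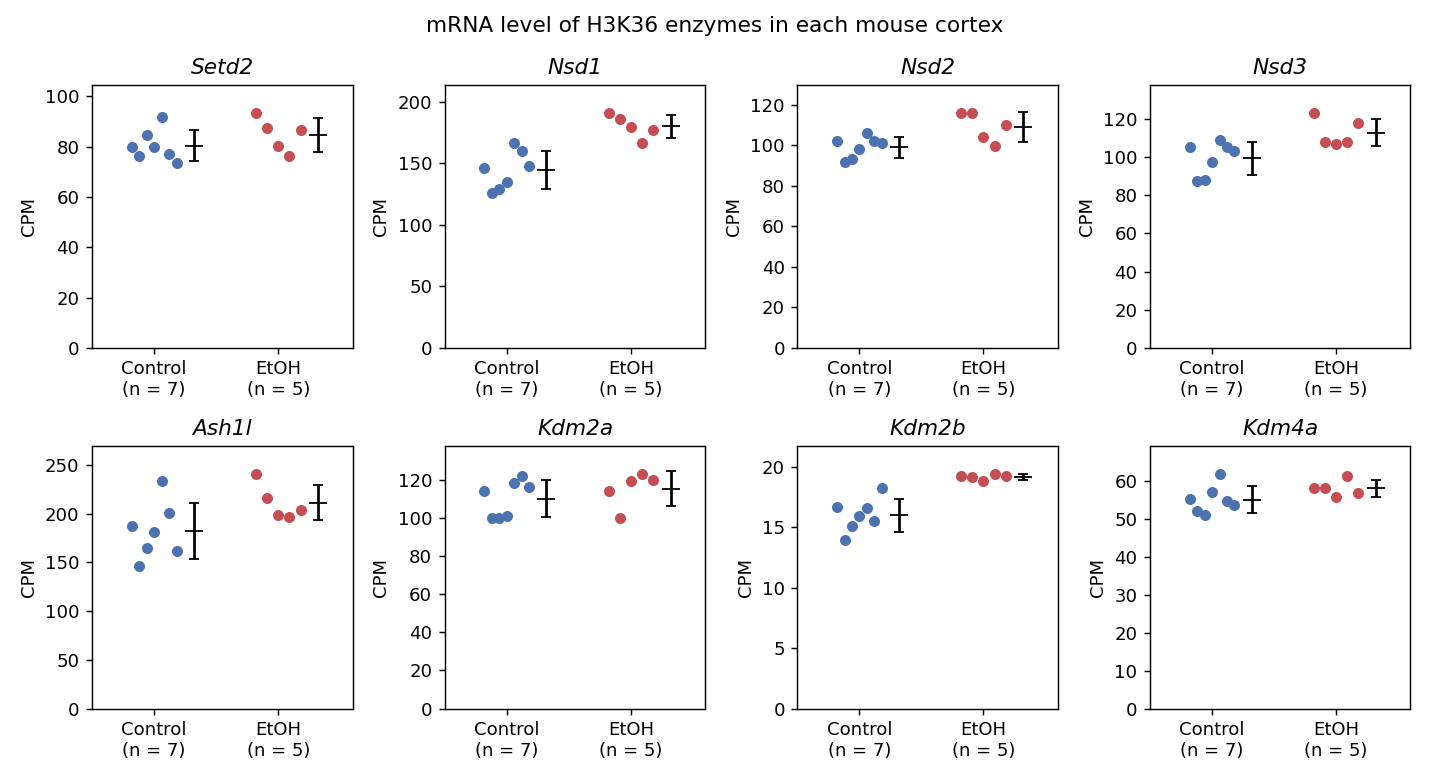
CPM of the 8 enzymes in each mouse (1 point per mouse, control mice in blue, ethanol-administered mice in red; bars are mean and SD beside the points; each axis starts at 0). The groups lie apart for Nsd1 and Kdm2b, as for 4.84% of all tested genes in this direction, and overlap for the other 6.

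Setd2, the enzyme of the trimethyl mark (chromosome 9 of GRCm39 from 110358262 to 110447701), had between 73.3 and 91.8 CPM in control mice, with a median of 79.8. The ethanol-administered mice 1 to 5 had 93.3, 87.2, 80.1, 76.2 and 86.4 CPM. The ranges overlapped almost whole, with 1 ethanol-administered mouse above every control mouse and none below. The means were 80.4 ± 6.11 and 84.6 ± 6.65 CPM, a 1.05-fold difference with a 95% interval from 0.96 to 1.15, and a log2 fold change of 0.07 (SE 0.06, adjusted p = 0.424 by edgeR). In each group the deeper library had the highest Setd2 value, and without both deeper libraries the log2 fold change was 0.08 (adjusted p = 0.36 by edgeR).

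Nsd1 (chromosome 13 from 55357560 to 55466138), a writer of the dimethyl mark, showed the largest change of the 8. Control mice had between 126 and 167 CPM with a median of 146, and ethanol-administered mice 1 to 5 had 191, 186, 180, 167 and 177 CPM. Every ethanol-administered mouse lay above every control mouse, although control mouse 5 and ethanol-administered mouse 4 both round to 167 CPM. The groups lay apart in this direction for 4.84% of all tested genes, and for 11.8% of those with a transcript of 8 kb or more, to which Nsd1 belongs. The mean rose from 144 ± 15.5 to 180 ± 9.14 CPM, a log2 fold change of 0.32 (SE 0.07, 95% interval 0.17 to 0.46, adjusted p = 0.00291 by edgeR). It kept an adjusted p under 0.05 in all 12 fits that left out 1 mouse, and lost it with the length trend taken out (log2 fold change 0.11, adjusted p = 0.0525 by edgeR).

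Nsd3 (chromosome 8 from 26091527 to 26209694), the third NSD enzyme, had between 87.6 and 109 CPM in control mice with a median of 103. Ethanol-administered mice 1 to 5 had 123, 108, 107, 108 and 118 CPM, so that 6 of the 7 control mice lay below all of them and only control mouse 5 reached into their range. The means were 99.3 ± 8.6 and 113 ± 7.29 CPM, with a log2 fold change of 0.19 (SE 0.06, 95% interval 0.05 to 0.32, adjusted p = 0.0441 by edgeR). When each mouse was left out in turn, Nsd3 missed the 0.05 threshold 6 times out of 12. The largest adjusted p of these was 0.11 by edgeR, without ethanol-administered mouse 1. Nsd3 also missed it with the length trend taken out (log2 fold change 0.02, adjusted p = 0.756 by edgeR).

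Nsd2 (chromosome 5 from 33977734 to 34055319), another writer of the dimethyl mark, lay between 91.6 and 106 CPM in control mice with a median of 101. Ethanol-administered mice 1 to 5 had 116, 116, 104, 99.8 and 110 CPM, 3 of them above every control mouse. The means were 99.3 ± 5.26 and 109 ± 7.2 CPM. Its log2 fold change of 0.14 (SE 0.05, 95% interval 0.02 to 0.25) did not pass the threshold (adjusted p = 0.075 by edgeR). It passed in 2 of the 12 fits that left out 1 mouse, those without control mouse 5 and without ethanol-administered mouse 4.

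Ash1l (chromosome 3 from 88857929 to 88986682), which encodes a writer of the dimethyl mark active at developmental genes, had the largest SD of the 8, relative to its mean, in the control mice. These had between 146 and 234 CPM with a median of 181, and ethanol-administered mice 1 to 5 had 241, 216, 199, 197 and 204 CPM. The deeper libraries held the highest value of each group, and 5 of the 7 control mice lay below all ethanol-administered mice. From means of 182 ± 29.2 and 211 ± 18.1 CPM, the log2 fold change was 0.21 (SE 0.09, 95% interval 0.01 to 0.41, adjusted p = 0.109 by edgeR). It passed without control mouse 5 (adjusted p = 0.0125 by edgeR) and without both deeper libraries (log2 fold change 0.24, adjusted p = 0.032 by edgeR). With the length trend taken out it had 0.04 (adjusted p = 0.718 by edgeR).

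Among the erasers, Kdm2b (chromosome 5 from 123008720 to 123127886), whose product also brings a Polycomb complex to unmethylated CpG islands, was the 1 of the 3 that rose. Control mice had between 13.9 and 18.2 CPM with a median of 15.9. Ethanol-administered mice 1 to 5 had 19.2, 19.1, 18.8, 19.4 and 19.2 CPM, all above every control mouse. In this direction the groups lay apart for 4.84% of all tested genes and for 5.84% of those from 4 to 8 kb, the class of Kdm2b. The mean rose from 16 ± 1.37 to 19.1 ± 0.202 CPM, a log2 fold change of 0.26 (SE 0.07, 95% interval 0.12 to 0.40, adjusted p = 0.0103 by edgeR). Kdm2b kept an adjusted p under 0.05 in all 12 fits that left out 1 mouse. These values rest on at least 453 counts per mouse, and the SD of 0.202 CPM among ethanol-administered mice is below the 0.743 CPM that counting error alone gives at their counts, so their close spacing is not a measure of the spread between mice.

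Its paralog Kdm2a (chromosome 19 from 4364447 to 4448313) had between 99.7 and 122 CPM in control mice with a median of 114. Ethanol-administered mice 1 to 5 had 114, 99.9, 119, 123 and 120 CPM, spread over the whole control range. The means were 110 ± 9.53 and 115 ± 9.11 CPM. The log2 fold change was 0.07 (SE 0.07, 95% interval -0.07 to 0.21, adjusted p = 0.495 by edgeR). Whether Kdm2a and Kdm2b changed differently was not tested. Kdm4a (chromosome 4 from 117994154 to 118037251), the eraser of the trimethyl mark, had between 51 and 61.9 CPM with a median of 54.8 in control mice and 58.3, 58.1, 55.7, 61.4 and 56.8 CPM in ethanol-administered mice 1 to 5. No ethanol-administered mouse lay above every control mouse, the means were 55.1 ± 3.61 and 58.1 ± 2.13 CPM, and the log2 fold change was 0.07 (SE 0.05, 95% interval -0.04 to 0.19, adjusted p = 0.342 by edgeR).

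The members are long mRNAs, and transcript length moved with the groups. The longest annotated transcripts were 4735 bases for Kdm4a, 5419 for Kdm2b, 7786 for Nsd2, 8460 for Setd2, 10538 for Kdm2a, 10771 for Nsd3, 11644 for Ash1l and 13054 for Nsd1. Over all tested genes with a length (97.3% of those tested), the median log2 fold change was -0.07 for transcripts under 2 kb, -0.06 from 2 to 4 kb, 0.03 from 4 to 8 kb and 0.15 for 8 kb or more. Of the 1447 genes of 8 kb or more, 75.5% had a positive log2 fold change and 32.4% were higher at an adjusted p under 0.05, against 5.78% of those under 2 kb. The 5 members in that longest class therefore stand beside a share of 32.4%, of which Nsd1 and Nsd3 are 2 of 5. In the class from 4 to 8 kb, where 13.9% of genes were higher, Kdm2b was 1 of 3.

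**Figure D2:**
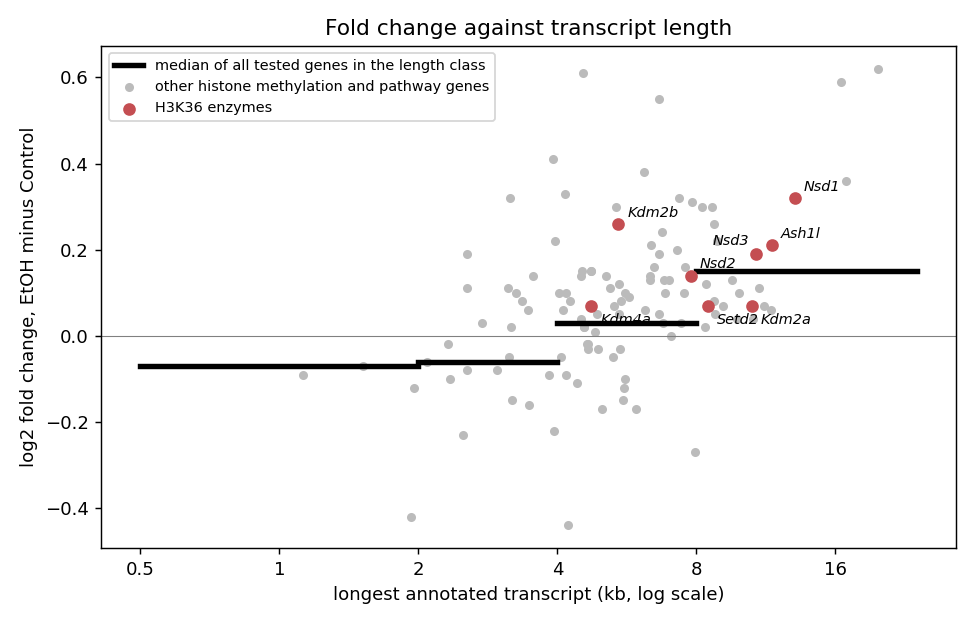
Log2 fold change (EtOH minus Control) against the longest annotated transcript in kb (log scale) for the 8 enzymes in red and the other histone methylation and pathway genes in grey. Black lines are the medians of all tested genes in 4 length classes, rising from -0.07 under 2 kb to 0.15 at 8 kb or more, so that Setd2 and Kdm2a lie below the line of their class and Nsd1 and Kdm2b lie well above theirs.

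The trend was seen in single mice. Genes of 8 kb or more deviated from their mean over all mice by a median of between 0.05 and 0.12 (log2) in all 5 ethanol-administered mice. In the control mice the median lay between -0.20 and 0.08, lowest in control mice 2 and 3 and highest in control mouse 5. Control mouse 2 also had the lowest value of Nsd1, Nsd2, Nsd3, Ash1l and Kdm2b. Since the groups overlapped through control mouse 5, this was not a clean split between them, and its origin was not tested.

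**Figure D3:**
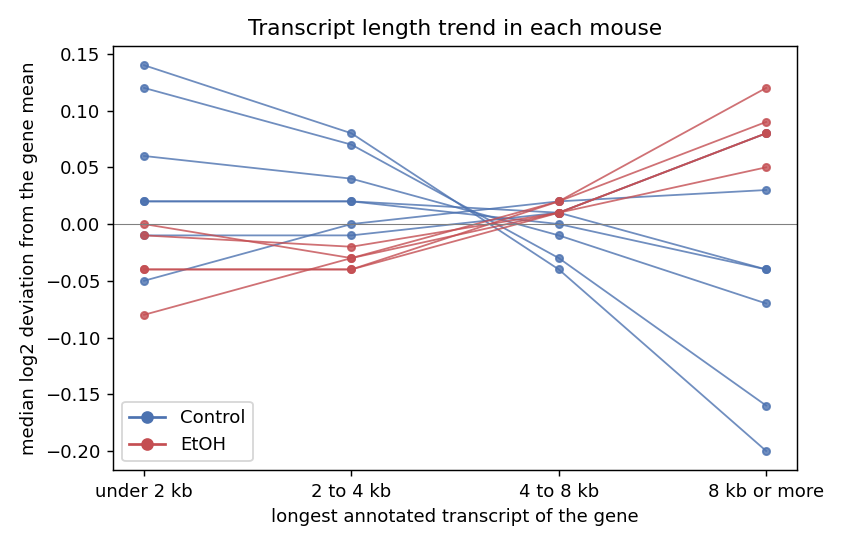
Median log2 deviation of all tested genes from their mean over 12 mice, by class of longest annotated transcript, with 1 line per mouse (control mice blue, ethanol-administered mice red). At 8 kb or more the ethanol-administered mice lie between 0.05 and 0.12 and the control mice between -0.20 and 0.08.

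With a smooth trend on transcript length taken out of each library, an alternative added after the data had been seen, Kdm2b was the only member at an adjusted p under 0.05 (log2 fold change 0.24, SE 0.06, adjusted p = 0.0127 by edgeR). In that fit 12.2% of genes from 4 to 8 kb, the class of Kdm2b, and 15.3% of those of 8 kb or more were higher. Nsd1 went to a log2 fold change of 0.11 (SE 0.04, adjusted p = 0.0525 by edgeR) and Nsd3 to 0.02 (SE 0.04, adjusted p = 0.756 by edgeR). Setd2 had -0.03 (SE 0.06, adjusted p = 0.731 by edgeR) and Kdm2a -0.09 (SE 0.05, adjusted p = 0.256 by edgeR), so that 6 of the 8 kept a positive sign. The median of the 8 went from 0.16 to 0.04.

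**Figure D4:**
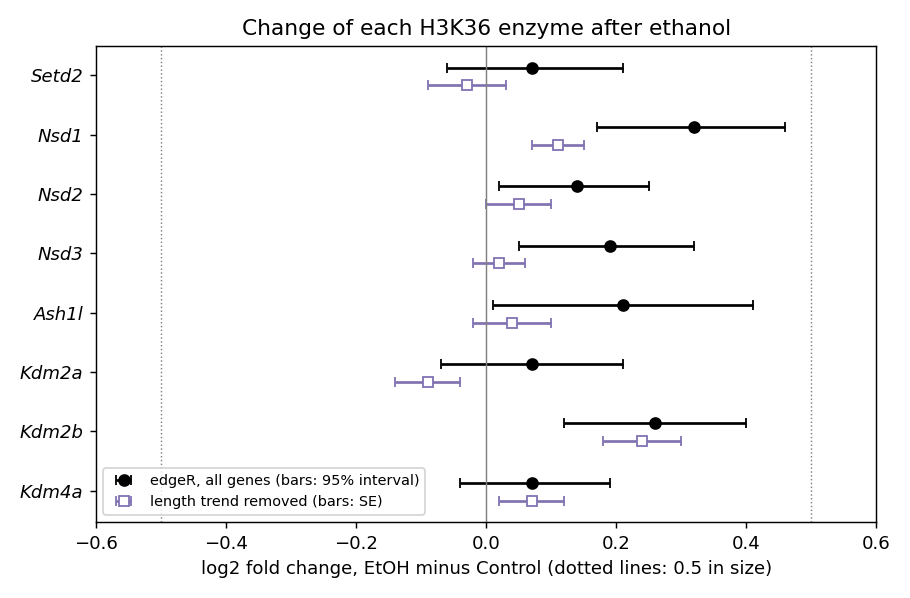
Log2 fold change (EtOH minus Control) of each enzyme in the edgeR fit (black circles, 95% interval) and with the transcript length trend taken out (open squares, bars are 1 standard error). All black circles lie above 0 and below the dotted line at 0.5, and Kdm2b had 0.26 and 0.24 in the fits, while the squares of Setd2 and Kdm2a lie below 0.

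Exons of other genes overlap some of the members, and the strand setting of the counting is not given in the sources used here, so reads there cannot be told apart. The largest overlap was that of Nsd2 with Nelfa on the opposite strand, over 3070 bases. Nelfa had a log2 fold change of 0.09 (adjusted p = 0.395 by edgeR). Kdm2b overlaps Rnf34 on the opposite strand over 643 bases, and Rnf34 had 50.3 CPM in control and 47.8 in ethanol-administered mice with a log2 fold change of -0.07 (adjusted p = 0.395 by edgeR). It also overlaps A930024E05Rik over 431 bases, which had 2.26 and 2.84 CPM and a log2 fold change of 0.33 (adjusted p = 0.185 by edgeR), and on its own strand Gm44574 over 124 bases, which no strand setting could separate. Overlaps covered 17.3% of the exon bases of Nsd2, 11% of Kdm2b, 5.85% of Nsd3 and at most 2.37% of Nsd1, Ash1l and Kdm4a. Setd2 and Kdm2a overlapped no other gene.

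Levels of different genes can be compared per length only. As RPKM, CPM per kilobase of annotated exon, Ash1l was the highest with 12.3 ± 1.97 in control and 14.2 ± 1.22 in ethanol-administered mice (SD). Kdm4a (9.17 and 9.66), Nsd1 (7.64 and 9.53), Setd2 (7.29 and 7.68), Nsd3 (5.92 and 6.73), Kdm2a (5.67 and 5.94) and Nsd2 (5.15 and 5.67 RPKM) followed, and Kdm2b was last with 1.46 ± 0.126 and 1.75 ± 0.0186. All 7 neighbouring pairs in this order differed within mice (exact sign-flip permutation test over 12 mice, two-sided, adjusted over 7 pairs, largest adjusted p = 0.0239). The order of the upper 7 depended on the length used: per coding length Kdm2a came first (29.3 and 30.7 RPKM) and Ash1l dropped below Kdm2a, Nsd3 and Nsd2. Kdm2b was the lowest of the 8 under each of the 3 lengths, and Setd2 was next to it per coding length. Per longest transcript Nsd3 and Setd2 did not differ beyond their spread (exact permutation test, adjusted p = 0.965), nor did Nsd1 and Kdm4a (exact permutation test, adjusted p = 0.697). Per coding length Nsd3 and Nsd2, with a mean difference of 0.01 on the log2 scale, did not differ beyond their spread (exact permutation test, adjusted p = 0.668).

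Between mice of 1 group, the NSD genes and Ash1l varied together. With group means removed, Pearson's r over 12 mice was 0.85 for Nsd1 and Nsd2 (Spearman's rho 0.87), the pair with the smallest p (permutation p = 9e-05, adjusted over 28 pairs 0.00252). It was 0.84 for Nsd1 and Nsd3 (rho 0.83, adjusted permutation p = 0.0195) and 0.86 for Nsd1 and Ash1l (rho 0.76, adjusted permutation p = 0.0161 for r and 0.0717 for rho). Of the 28 pairs, 6 passed for r, all among Nsd1, Nsd2, Nsd3 and Ash1l, and 5 passed for rho. Without the 2 mice farthest from the median, the 3 named pairs had r of 0.78, 0.73 and 0.68. Kdm2a, with a transcript longer than that of Nsd2, had r of 0.56 with Nsd1 (rho 0.51), 0.66 with Nsd3 (rho 0.50), 0.38 with Ash1l (rho 0.28) and 0.16 with Nsd2 (rho 0.12), none past the threshold (smallest adjusted permutation p = 0.117). The part of transcript length in r was not tested.

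None of the pairs of Setd2 passed. Its r was 0.70 with Ash1l (rho 0.62, adjusted permutation p = 0.0583), 0.61 with Nsd2 (rho 0.62, adjusted permutation p = 0.137), 0.43 with Nsd1 (rho 0.33, adjusted permutation p = 0.27), 0.38 with Nsd3 (rho 0.45, adjusted permutation p = 0.341), -0.03 with Kdm2b (rho -0.03, adjusted permutation p = 0.922) and -0.18 with Kdm2a (rho -0.29, adjusted permutation p = 0.644). The 2 mice farthest from the median of Setd2 were those with the deeper libraries, control mouse 5 and ethanol-administered mouse 1. Without them r was 0.29 with Ash1l, 0.35 with Nsd2, -0.07 with Nsd1 and -0.11 with Nsd3, so these relations rest on those mice. Without the same mice r went to -0.57 with Kdm2a and from 0.32 (rho 0.23, adjusted permutation p = 0.391) to -0.32 with Kdm4a. Over all 28 pairs the median r was 0.53, and 0.38 without the deeper libraries.

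**Figure D5:**
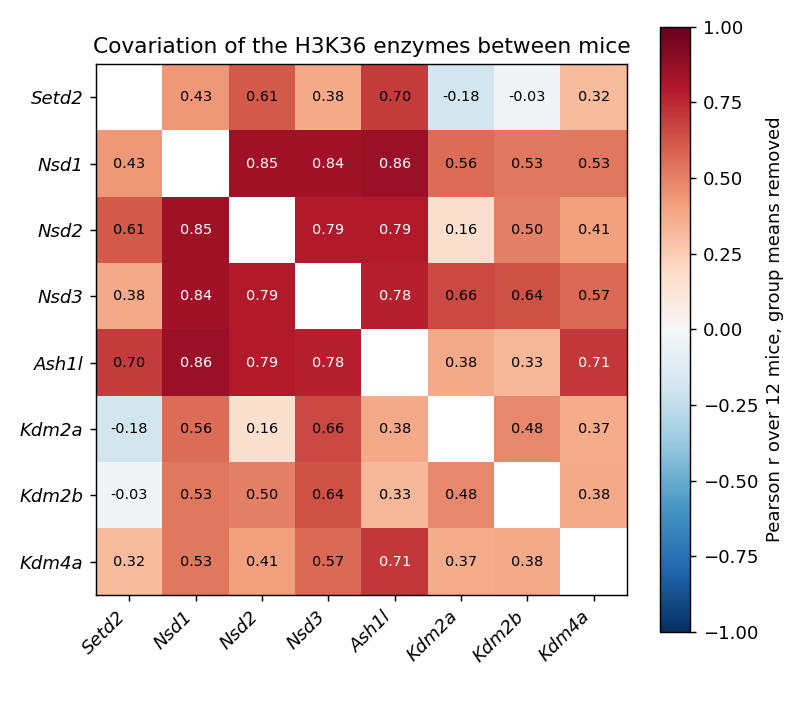
Pearson r of log2 CPM over 12 mice with group means removed, for each pair of the 8 enzymes (red positive, blue negative, scale from -1 to 1). Nsd1, Nsd2, Nsd3 and Ash1l form a block with r from 0.78 to 0.86, and Setd2 with Kdm2a is the lowest pair at -0.18.

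The tested genes most like each member, by Pearson's r over the 12 mice with group means removed, are given as a description. They were Dkc1 (0.93) and Lrpprc (0.91) for Setd2, Peg3 (0.98) and Ankhd1 (0.97) for Nsd1, Cdc37l1 (0.96) and Pcgf5 (0.95) for Nsd2, and Cpeb3 and Cep350 (both 0.97) for Nsd3. For Ash1l they were Myo5a (0.98) and Dmxl2 (0.97), for Kdm2a Setd1b (0.98) and Nr4a3 (0.95), for Kdm2b Rims1 (0.94) and Nfkbiz (0.93), and for Kdm4a Gcn1 and Fam184b (both 0.93). Each value is the highest or second highest of 16059 genes over the same 12 libraries.

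The pathway around the mark was examined through lists of genes. Over all tested genes, the groups lay apart with the ethanol-administered mice higher for 4.84%. The share lying apart in the other direction was not counted. Of 10 other enzymes placed at H3K36, 2 rose and none fell at an edgeR adjusted p under 0.05, where 12.1% of all tested genes were higher. The median log2 fold change of the 10 was 0.04. Smyd2, a SET enzyme with histone and non-histone substrates, rose from 18.1 ± 2.82 to 22.6 ± 1.19 CPM, a log2 fold change of 0.32 (adjusted p = 0.0222 by edgeR), and Setd5 had 0.20 (adjusted p = 0.0418 by edgeR), which did not pass with the length trend taken out (0.13, adjusted p = 0.0973). The KDM4 genes of this list, named here after their values were seen, were Kdm4b, Kdm4c and Kdm4d. Kdm4b and Kdm4c had log2 fold changes of 0.07 and 0.01 (adjusted p = 0.369 and 0.96 by edgeR). Kdm4d had 1.49 ± 0.153 and 1.09 ± 0.144 CPM and did not pass, with a log2 fold change of -0.44 (SE 0.17, adjusted p = 0.0663 by edgeR). Its EtOH values lay under all the Control values, a direction in which all genes were not counted. Leaving out 1 mouse gave 0 to 2 passing genes in this list, 0 without ethanol-administered mouse 5 and 1 in 6 of the fits.

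Of 17 readers of the mark, 1 rose and 1 fell, where 23.7% of all tested genes differed in either direction, and the median was 0.09. Without control mouse 5 the count was 4, without control mouse 7 it was 3, and without control mouse 4 or ethanol-administered mouse 1 it was 1. With the length trend taken out it was 3. Zmynd11, which binds the trimethyl mark on histone H3.3, rose from 222 ± 9.66 to 247 ± 8.71 CPM, with a log2 fold change of 0.15 (adjusted p = 0.0224 by edgeR). Hdgf, a PWWP domain protein, fell from 172 ± 8.89 to 147 ± 5.71 CPM with no overlap between the groups and a log2 fold change of -0.23 (adjusted p = 0.00316 by edgeR). Msh6, the mismatch repair reader that links the mark to repair and which was named after its values were seen, had 17 ± 1.25 and 17.2 ± 1.31 CPM, with a log2 fold change of 0.02 (SE 0.07, adjusted p = 0.894 by edgeR). Of 9 mismatch repair genes 1 passed, where 23.7% of all tested genes did. This was Pms2, with 9.3 ± 1.23 and 12.1 ± 1.06 CPM and a log2 fold change of 0.38 (adjusted p = 0.00936 by edgeR).

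Of 14 partners of SETD2 on the elongating polymerase, 1 rose, where 12.1% of all tested genes did. This was the polymerase kinase gene Cdk12 (24.5 ± 3.64 and 30.2 ± 1.61 CPM, SD, log2 fold change 0.30, adjusted p = 0.0206 by edgeR). With the length trend taken out Cdk12 had 0.20 (SE 0.07, adjusted p = 0.0501 by edgeR). The count for this list was 0 without ethanol-administered mouse 3 or 5, 2 without ethanol-administered mouse 2 and 4 without control mouse 5. With the replicate number as a block, or without both deeper libraries, it was 2. Of 12 genes of S-adenosylmethionine supply, 1 rose, where 12.1% of all tested genes did. This was Ahcyl2, a relative of the hydrolase that clears S-adenosylhomocysteine. It went from 143 ± 5.16 to 177 ± 10.5 CPM, with the groups apart, a log2 fold change of 0.30 (adjusted p = 0.000256 by edgeR) and 0.28 with the length trend taken out. Mat2a, which makes S-adenosylmethionine in the brain and was named after its values were seen, had 180 ± 12.7 and 161 ± 9.37 CPM and a log2 fold change of -0.16 (adjusted p = 0.0507 by edgeR). The count for this list was 2 with DESeq2, upper quartile factors, at least 10 counts in every mouse or the replicate number as a block, and without both deeper libraries. Without control mouse 5 it was 3, and without control mouse 3 or ethanol-administered mouse 3 it was 2. None of 12 Polycomb genes, from PRC2 without its methyltransferases and from the PRC1.1 complex that KDM2B belongs to, passed in edgeR, DESeq2 or limma voom. In edgeR 23.7% of all tested genes did (1 of the 12 had an unadjusted edgeR p under 0.05). The PRC2 methyltransferase genes Ezh1 and Ezh2, counted in the next list and named after their values were seen, had 0.15 and -0.15 (log2, adjusted p = 0.0213 and 0.339 by edgeR). Of the 12, 1 passed without control mouse 5 and 2 with the length trend taken out. The smallest edgeR p was that of Rnf2, the catalytic ubiquitin ligase, with a log2 fold change of 0.14 (adjusted p = 0.119 by edgeR).

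Among 20 methyltransferases of other histone lysines, 7 rose and 1 fell, where 12.1% of all tested genes were higher, with a median log2 fold change of 0.12. With the length trend taken out, 4 genes of the list passed. The smallest p-values were those of the H3K4 methyltransferase genes Kmt2d and Kmt2a, which were called past the minimum fold change. Kmt2d had 147 ± 32.3 and 227 ± 20.4 CPM, a log2 fold change of 0.62 (adjusted p = 0.00118 by edgeR). Kmt2a had 201 ± 41.5 and 302 ± 26.6 CPM, a log2 fold change of 0.59 (adjusted p = 0.00146 by edgeR). Both have transcripts longer than any H3K36 member, 19826 and 16497 bases, and with the length trend taken out both had a log2 fold change of 0.35 (adjusted p = 0.00189 and 0.00223 by edgeR). Kmt5c, an H4K20 methyltransferase gene, fell with a log2 fold change of -0.22 (adjusted p = 0.0385 by edgeR), and had -0.19 with the length trend taken out (adjusted p = 0.0681). The other 5 that rose are named after their values were seen. Kmt2e (0.32) and Ezh1 (0.15) had 0.24 and 0.15 with the length trend taken out (adjusted p = 0.00658 and 0.0154 by edgeR). Kmt2b, Kmt2c and Setdb1 rose by 0.26, 0.36 and 0.19 (log2) and had 0.15, 0.11 and 0.13 with the length trend taken out (adjusted p = 0.0705, 0.18 and 0.0791 by edgeR).

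Of 14 demethylases of other histone lysines, 3 rose and none fell, where 12.1% of all tested genes were higher, with a median of 0.10. Kdm1b, an H3K4 demethylase gene, rose from 10.2 ± 0.459 to 12.7 ± 0.855 CPM with the groups apart (log2 fold change 0.31, adjusted p = 0.00409 by edgeR). Jmjd1c had 0.30 (adjusted p = 0.0178 by edgeR), and Kdm6b, an H3K27 demethylase gene, had 0.55 (adjusted p = 0.0191 by edgeR). With the length trend taken out, Kdm1b and Kdm6b kept an adjusted p under 0.05 (log2 fold change 0.22 and 0.49), and Jmjd1c did not (0.19, adjusted p = 0.0618 by edgeR).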

How the data were processed

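RNA of cortex from 12 mice, 7 control and 5 ethanol-administered, was sequenced by BGI. The authors checked reads with FastQC 0.11.9, used STAR with the GRCm39 genome and Gencode Release 28 for alignment and featureCounts for counting, and compared groups with DESeq2. The authors deposited 1 table of expected counts per gene symbol, not normalized, in which 61 symbols hold values that are not whole; counts were rounded. Columns were matched to mice by name, with 0 left over. All 31 pairs of libraries of the same group differed beyond counting noise (chi-square over degrees of freedom at least 7.84). The labels do not say whether mice shared a cage or litter.

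Genes kept by filterByExpr (16059) were compared with edgeR 4.0.16 (TMM, quasi-likelihood test) in R 4.3.3, adjusted by Benjamini-Hochberg over all of them. Standard errors are the log2 fold change over the square root of F. A gene was called, as in the study, at an adjusted p under 0.05 with a change of more than 0.5 (log2) either way, and the adjusted p alone was used where stated. At these depths 3 counts are at most 0.0944 CPM. Intervals rest on the spread between mice, so they do not cover an error shared by all mice of a group.

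Alternatives were DESeq2 1.42.0, limma 3.58.1 voom, upper quartile or relative log expression factors, at least 1 count in any mouse or 10 in every mouse, the replicate number as a block, and each mouse left out. A fit without both deeper libraries, and one with a lowess trend on longest transcript length as an offset, were added after seeing the data. Fits were tested on simulated data. The members and gene lists were chosen with earlier results of these data known. Named genes are the 8 members, listed genes at adjusted p under 0.05 (with over 4, the 2 smallest p in each direction; with none, the smallest), and the 2 genes most like each member; others are said to be named after their values were seen. Lengths, positions and sequences are from Gencode release 39 on GRCm39, newer than the authors' annotation.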

Additional observations from a re-analysis of the deposited data

Results flagged for a closer look

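A single mouse stood far from the rest of its group in 5 of 42 comparisons of a group's member CPM, library total or summed marker CPM, where chance gives about 2.1, and none of the 5 was an H3K36 enzyme. The library of control mouse 5 held 40690226 counts (next in its group 32356909) and that of ethanol-administered mouse 1 held 42183031 (next 33313165). These were the mice with the highest CPM of Setd2, Nsd1, Nsd3 and Ash1l in their groups, and all 8 enzymes kept a positive log2 fold change without both. Control mouse 6 had the lowest summed CPM of oligodendrocyte precursor markers (272, next 290) and the highest of blood markers (128, next 21.1). Ethanol-administered mouse 3 had the highest summed CPM of choroid plexus markers (979, next 269), while its Kdm2b value of 18.8 CPM was the lowest of its group.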

How the results depend on the processing

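Kdm2b kept its direction and an adjusted p under 0.05 in all 9 other fits (edgeR, DESeq2 or limma voom, log2 fold change 0.24 to 0.30) and in all 12 fits without 1 mouse, and Nsd1 did so in 8 of the 9. With the length trend taken out, 1 member passed in place of 3, Nsd1 had 0.11 and Nsd3 0.02 (log2), and Setd2 (-0.03) and Kdm2a (-0.09) turned sign, neither past the threshold in any fit. With at least 1 count in any mouse, which raised the genes tested to 23748, Nsd3 had 0.19 (adjusted p = 0.0523 by edgeR). Without both deeper libraries Ash1l passed (0.24). With no fold change minimum, 3 members and 3810 genes were called (1947 higher, 1863 lower) in place of 0 and 1331 (674 and 657). Leaving out 1 mouse at a time gave 2 to 5 members at an adjusted p under 0.05, with log2 fold changes of 0.11 to 0.17 for Nsd2, 0.16 to 0.20 for Nsd3 and 0.16 to 0.27 for Ash1l, and 13 to 28 listed pathway genes in place of 18. The members passing were 2 without control mouse 2, 3 or 4 or ethanol-administered mouse 1 or 5, and 5 without control mouse 5, whose length deviation was the highest of the controls. With the length trend taken out, listed pathway genes went from 18 to 14, with falls among methyltransferases of other lysines (8 to 4), other H3K36 enzymes (2 to 1), polymerase partners (1 to 0) and demethylases of other lysines (3 to 2), and rises among readers (2 to 3) and Polycomb genes (0 to 2). Apart from the construction of these fits, the cause was not tested.

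With the replicate number as a block, Nsd1 had 0.36, Kdm2b 0.30, Nsd3 0.22 and Setd2 0.04 (log2). The same 3 members passed, while passing genes of the pathway lists went from 18 to 23. The numbers name different mice in each group, and the correlation of deviations between mice with the same number lay between -0.108 and 0.0182. Mice with the same number were thus not alike by this measure, which cannot tell whether they shared a cage or litter.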
